A study of Mus musculus with 17 samples.

Results

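Complement and coagulation factors are plasma proteins that the liver makes and releases in large amounts, and their mRNAs were followed here in livers of mice challenged with a high-fat diet (HFD), an ethanol binge, or both. The set was given as 50 gene symbols, and every array probe annotated with one of these symbols was taken. There were 24 symbols of the complement system and 26 of coagulation and fibrinolysis. A total of 49 genes had a probe, with 72 of the 41174 non-control probes of the array, and only C1s, a protease of the first complement component, had none by that symbol. All 49 genes, 23 of complement and 26 of coagulation and fibrinolysis, had a probe that passed the filter on signal, and 68 probes of these genes were tested among 34649 probes that stand for 19349 genes.

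The study asked how HFD feeding and binge ethanol act together in the liver. RNA from the livers of 17 male mice was run on Agilent arrays with 2 colors, and each mouse had its own array. Chow mice (n = 4) ate a chow diet and received maltose by gavage, and 1B mice (n = 4) ate chow and received ethanol at 5 g/kg by gavage. HFD mice (n = 4) ate HFD for 3 months before a maltose gavage, and HFD+1B mice (n = 5) ate the same diet before ethanol at 5 g/kg. The labels give the strain as C57BL/6N and the methods as C57BL/6J, with no genetic change in any group. The diet was given for 3 months in all groups by the labels, and livers were taken 9 hours after gavage. The mice are separate animals, but the labels do not give litters or cages. All values are log2 ratios of liver (Cy5) to a reference RNA (Cy3) that was common to all arrays, so a level says how a gene stood against that reference and differences between groups do not depend on it. The reference is named both as assorted mouse RNA and as liver in the labels. A gene is represented by its brightest probe unless stated, and is called changed at a Benjamini-Hochberg adjusted p of 0.05 or less in limma over all probes tested.

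In the complement system, the classical pathway starts from C1q bound to antibody and the lectin pathway from mannose-binding lectins, both cleave C4 and C2, and the alternative pathway amplifies the cleavage of C3 through factors B and D. All routes lead to C5, and C5b then gathers C6, C7, C8, and C9 into a pore in the target membrane. In coagulation, tissue factor and factor VII or the contact factors start a chain of proteases that ends in thrombin, which turns fibrinogen into fibrin, and plasmin made from plasminogen dissolves it. Hepatocytes are the main source of most of these proteins, and fibrinogen is a classical acute phase protein whose genes respond to interleukin-6. C1q is made mainly by macrophages, and thrombomodulin is a receptor on endothelial cells.

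Arrays had a median Cy5 signal between 63 and 158 intensity units, and 73.8% to 85.9% of the probes were well above background in that channel. The brightest probes of all 49 genes were well above background on every array, and no member probe had most of its spots marked as saturated in Cy5. Saturation in Cy3 was not checked. The number of mice limits the precision. The arrays lay on 5 slides, each with mice of several groups, so that most differences could be taken within slides. Outlier spots, as the scanner files mark them, were not used, which removed single mice from single genes. The mean log2 ratio of 5 probes for ribosomal RNA was 0.44 in chow mice, -0.36 in 1B mice, -3.03 in HFD mice, and 0.17 in HFD+1B mice. HFD mouse 3 stood apart in acute phase genes, and called differences of members that moved by over 1.5 times without it (Klkb1, Tfpi, and Plg) are given with and without it. The hepatocyte marker list (8 genes tested) had a mean per mouse of -0.35 to 0.33 relative to chow over the 5 HFD+1B mice, -0.25 to -0.05 over the HFD mice, and -0.15 to 0.05 over the 1B mice.

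The sequences shown here are those of the genes that carry the opposite changes described next, the 3 fibrinogen chains and the 2 larger chains of C8, which lie side by side in the genome as Fga, Fgb, and Fgg on chromosome 3 and as C8a and C8b on chromosome 4. Each is the 250 bases before the gene's start in RefSeq (mouse build GRCm38.p6), read 5′ to 3′ on the strand of the gene. Capitals mark matches, on either strand, to the interleukin-6 response element core CTGGGAA, to the HNF1 core GTTAAT, and to the C/EBP site TTGCNNAA. The Fga promoter lies at chr3:83025903-83026152 on the plus strand, that of Fgb at chr3:83049864-83050113 on the minus strand, and that of Fgg at chr3:83007474-83007723 on the plus strand. The C8a promoter lies at chr4:104876399-104876648 on the minus strand and that of C8b at chr4:104766067-104766316 on the plus strand.
Fga: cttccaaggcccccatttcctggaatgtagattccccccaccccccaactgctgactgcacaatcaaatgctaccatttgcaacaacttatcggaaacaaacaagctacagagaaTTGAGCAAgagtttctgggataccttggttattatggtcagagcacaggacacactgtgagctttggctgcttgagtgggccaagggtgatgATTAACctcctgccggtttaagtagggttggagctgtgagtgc
Fgb: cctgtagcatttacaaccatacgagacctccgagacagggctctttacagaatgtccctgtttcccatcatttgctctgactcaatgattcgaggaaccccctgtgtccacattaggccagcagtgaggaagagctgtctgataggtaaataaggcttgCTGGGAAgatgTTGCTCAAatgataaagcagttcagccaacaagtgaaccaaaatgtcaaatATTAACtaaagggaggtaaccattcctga
Fgg: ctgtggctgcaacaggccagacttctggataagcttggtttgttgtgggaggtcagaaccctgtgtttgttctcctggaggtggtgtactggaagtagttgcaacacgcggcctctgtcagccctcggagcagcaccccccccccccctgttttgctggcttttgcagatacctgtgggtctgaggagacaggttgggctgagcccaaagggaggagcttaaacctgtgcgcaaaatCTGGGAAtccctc
C8a: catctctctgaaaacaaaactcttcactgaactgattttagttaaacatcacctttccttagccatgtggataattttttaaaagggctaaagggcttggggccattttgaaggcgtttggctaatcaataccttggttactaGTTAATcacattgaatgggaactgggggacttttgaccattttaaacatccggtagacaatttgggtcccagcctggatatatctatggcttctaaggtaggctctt
C8b: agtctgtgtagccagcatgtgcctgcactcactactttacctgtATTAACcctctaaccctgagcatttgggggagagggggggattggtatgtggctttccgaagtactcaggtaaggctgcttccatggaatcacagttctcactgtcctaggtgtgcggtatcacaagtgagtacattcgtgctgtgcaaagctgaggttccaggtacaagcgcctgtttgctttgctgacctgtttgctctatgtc
The Fgb window held all 3 motifs, with CTGGGAA and the C/EBP match close together. The Fga window held the HNF1 core and a C/EBP match, the Fgg window held CTGGGAA alone, and the C8a and C8b windows held the HNF1 core alone. The 3 motifs do not overlap in these windows. Of 27018 promoter windows of the same length, 9.08% held CTGGGAA, 6.52% the HNF1 core, and 9.56% the C/EBP match. Among the 35 members found in the promoter table, these shares were 17.1% (6 genes), 25.7% (9 genes), and 22.9% (8 genes). A match is a run of letters and not a shown binding site.

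In HFD+1B mice the complement and coagulation genes moved unequally. Compared with chow, 15 of 23 complement genes were called, 2 higher and 13 lower, and 14 of 26 coagulation and fibrinolysis genes, 5 higher and 9 lower, whereas 16.3% of all genes tested were called. All 6 genes of the terminal pathway were lower, and all 3 fibrinogen chains were higher. The median log2 difference was -0.37 over the complement genes and -0.10 over the coagulation genes, against 0.00 over all genes. When a change of at least 2-fold was required as well, 3 complement genes were called, all lower (C8b, C8a, and C6), and 5 coagulation genes, of which 4 were higher (Thbd, Fgg, Fgb, and Fga) and 1 lower (Klkb1), with 3.01% of all genes. The mice did not overlap between the groups for 12 complement genes (1 higher, 11 lower) and 15 coagulation genes (5 higher, 10 lower), compared with 15.6% of all genes. Among all genes, 8.90% were called higher and 7.40% lower. The mean of the complement genes was -0.46 to -0.19 relative to chow in the 5 HFD+1B mice, below all 4 chow mice at -0.07 to 0.10. The mean of the coagulation genes was -0.11 to 0.20 in HFD+1B mice and -0.07 to 0.08 in chow mice, so that these overlapped. With Cy5 signal alone the calls were 0 higher and 7 lower for complement and 4 higher and 4 lower for coagulation, and those with the authors' own log2 ratios were 2 higher and 10 lower for complement and 4 higher and 9 lower for coagulation. Over all genes, Cy5 alone called 588 higher and 560 lower, and the authors' ratios 1330 higher and 1206 lower. The fit used throughout called 1722 higher and 1432 lower.

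**Figure D1:**
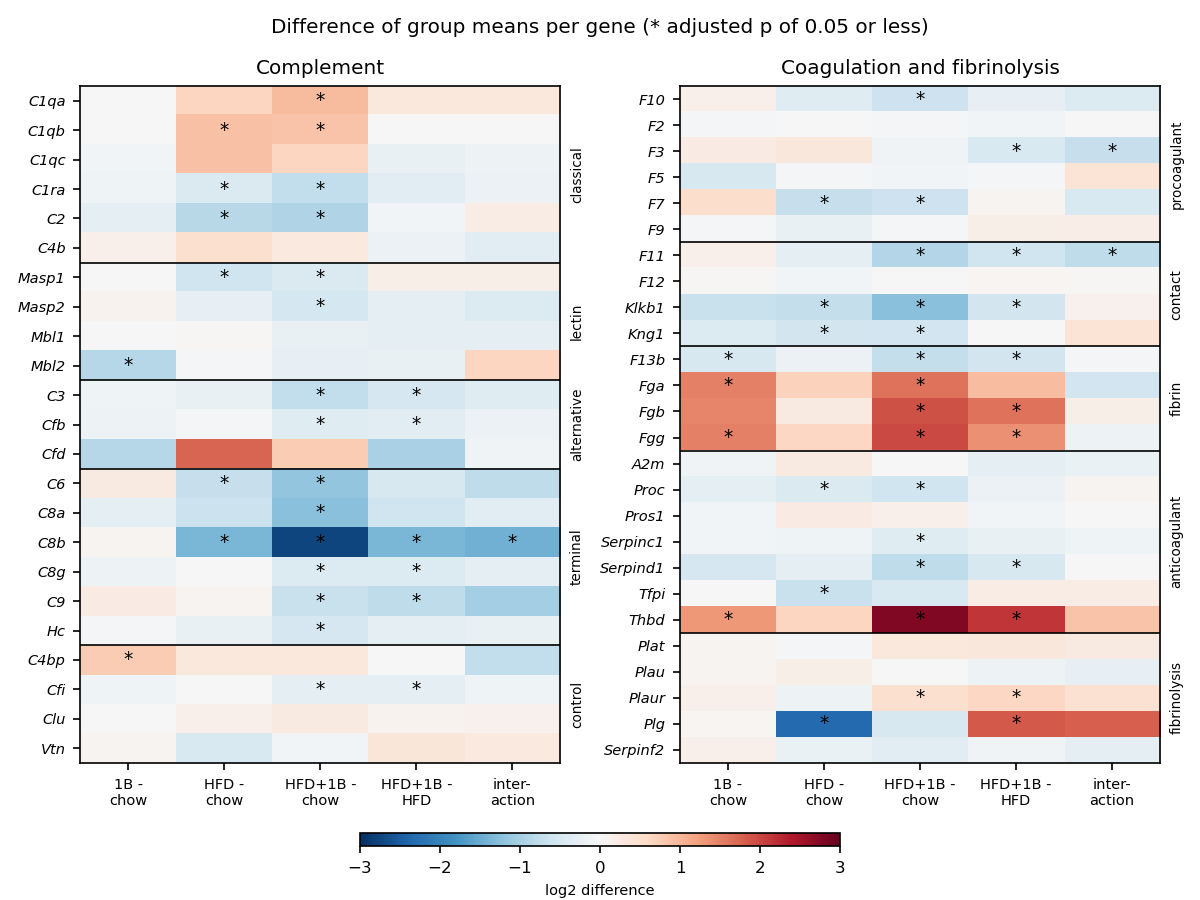
Difference of group means (log2, color scale) for the 49 genes with a probe, complement at left and coagulation and fibrinolysis at right, in the 4 group comparisons and the interaction, with an asterisk for calls in limma. In HFD+1B minus chow all 6 terminal genes are lower and called, and the 3 fibrinogen chains and Thbd are higher and called.

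The other comparisons called fewer members. In 1B minus chow, 2 complement genes (1 higher, 1 lower) and 4 coagulation genes (3 higher, 1 lower) were called, with 4.14% of all genes (2.09% higher, 2.05% lower). In HFD minus chow, 6 complement genes (1 higher, 5 lower) and 6 coagulation genes (0 higher, 6 lower) were called, with 11.0% of all genes (4.50% higher, 6.47% lower). In HFD+1B minus HFD, 6 complement genes (0 higher, 6 lower) and 10 coagulation genes (5 higher, 5 lower) were called, with 19.4% of all genes (11.0% higher, 8.40% lower), against which the complement count does not stand out. The interaction, which is the ethanol effect on HFD minus the ethanol effect on chow, was called for 1 complement gene (C8b) and 2 coagulation genes (F3 and F11), all negative, with 4.38% of all genes (2.66% positive, 1.72% negative). At a change of at least 2-fold with an unadjusted p of at most 0.05, which gave 1.06%, 1.93%, 3.03%, 2.12%, and 2.25% of all genes in the 5 comparisons in the order 1B, HFD, HFD+1B minus chow, HFD+1B minus HFD, and interaction, 0, 2, 3, 1, and 2 complement genes and 4, 1, 5, 4, and 1 coagulation genes passed. Comparisons with chow share the same 4 chow mice, and those with HFD the same 4 HFD mice. The median over the complement genes was -0.02 in 1B mice, -0.03 in HFD, -0.27 in HFD+1B minus HFD, and -0.19 in the interaction, and the median over the coagulation genes was 0.04, -0.14, -0.07, and 0.00. In all, 34 of the 49 genes, 17 of each class, were called in at least 1 of the 5 comparisons.

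Single mice moved several of these counts. The complement count became 1 in 1B without chow 4, 3 in HFD without chow 1 or 4 or HFD 2 or 3, and 3 in HFD+1B minus HFD without HFD 3 or HFD+1B 4. The coagulation count became 2 in 1B without chow 2, 3, or 4 or 1B 1 or 4, and 7 without HFD 3. It became 3 in HFD without chow 3 or HFD 3, and 6 in HFD+1B minus HFD without HFD 4. The interaction kept no complement call without any 1 of 10 mice and had 3 without HFD 2, and it had 0 or 1 coagulation calls without any 1 of 12 mice. In HFD+1B minus chow the counts were 11 to 16 and 13 to 15 over all 17 such fits.

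These counts moved with the centring of the arrays. With each array centred on its median in place of loess, the median over all genes was 0.14 in HFD+1B minus HFD and 0.15 in the interaction, and the calls in HFD+1B minus HFD became 3 higher and 1 lower for complement and 6 higher and 0 lower for coagulation. Of all genes, 3680 were then called higher and 449 lower in HFD+1B minus HFD. The interaction then had 1 positive and 0 negative calls for complement and 3 and 0 for coagulation. In HFD minus chow that centring gave 0 higher and 9 lower calls for complement and 0 and 10 for coagulation, and in 1B it gave 0 and 1 for complement and 1 and 3 for coagulation. Over all genes it gave 277 higher and 1739 lower in HFD and 209 and 310 in 1B. With Cy5 signal alone, the calls in HFD+1B minus HFD were 0 higher and 5 lower for complement and 3 higher and 1 lower for coagulation, those in HFD 0 and 2 and 0 and 3, and those in 1B 0 and 0 and 0 and 1. Over all genes they were 770 higher and 423 lower in HFD+1B minus HFD, 202 and 551 in HFD, and 75 and 92 in 1B. With the authors' own table the coagulation calls were 1 higher and 1 lower in 1B and 6 higher and 3 lower in HFD+1B minus HFD, and the complement calls in HFD 2 higher and 5 lower. In HFD+1B minus chow the 6 terminal genes were lower and the 3 fibrinogen chains higher under each of the scaling settings, which refers to direction and not to calls. Over all genes, median centring gave 1603 higher and 815 lower calls in that comparison.

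**Figure D2:**
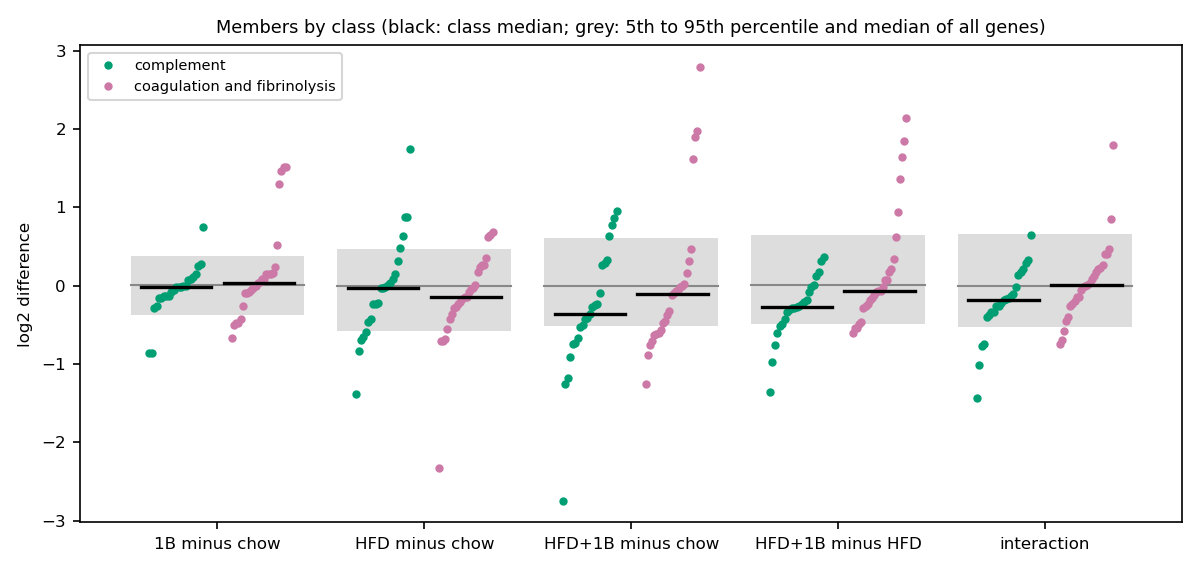
Log2 difference of each complement gene (green, 23 genes) and each coagulation and fibrinolysis gene (pink, 26 genes) in the 5 comparisons, ordered by value, with class medians in black and the 5th to 95th percentile and median of all 19349 genes in gray. In HFD+1B minus chow most complement genes lie below 0 and 4 coagulation genes lie far above the gray band.

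The terminal pathway showed the clearest fall. C8b encodes the beta chain of C8, which binds C5b-7 and lets the pore begin to enter the membrane. Its log2 ratio was 0.49, 1.12, 0.33, and 0.68 in the chow mice and 0.56, 0.82, 0.79, and 0.75 in the 1B mice. It was -0.57, -1.12, -0.98, and -0.25 in the HFD mice and -1.30, -2.93, -1.85, -2.32, and -2.05 in the HFD+1B mice. All 4 HFD mice thus lay below all chow and 1B mice, and all 5 HFD+1B mice lay below all HFD mice. C8b was lower in HFD than in chow by 2.61-fold (log2 difference -1.38, SE 0.26, adjusted p 0.0032), lower in HFD+1B than in chow by 6.7-fold (SE 0.25, adjusted p 1.42e-06), and again lower by 2.57-fold between HFD+1B and HFD mice (log2 difference -1.36, SE 0.25, adjusted p 0.00136). In 1B it stood at 0.08 relative to chow (adjusted p 0.956). The difference between HFD+1B and chow had the same sign on 4 of 4 slides that held both, from -3.25 to -1.80. For C8b the interaction of diet and ethanol was -1.44 (SE 0.36, adjusted p 0.0333). That call was lost with median centring (-1.06), with Cy5 alone, and in 10 of the 17 fits that left out 1 mouse (without chow 1, 3, or 4, any of the 1B mice, HFD 1 or 4, or HFD+1B 4), in which it was -1.50 to -1.28 with an adjusted p of 0.0523 to 0.0745.

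C8a, the alpha chain that forms a complex with the gamma chain, had fewer values because spots were left out. It was 0.92, 0.24, and 0.39 in 3 chow mice, 0.33 and 0.17 in 2 1B mice, -0.03, -0.30, and -0.07 in 3 HFD mice, and -0.43, -1.08, and -0.71 in 3 HFD+1B mice. The 3 HFD+1B mice were below all others. C8a was lower in HFD+1B than in chow by 2.38-fold (log2 difference -1.25, SE 0.19, adjusted p 0.000973), with values of -1.31 and -1.10 on the 2 slides that allowed a difference, and it was -0.65 in HFD minus chow and -0.60 in HFD+1B minus HFD, which did not pass (adjusted p 0.056 and 0.0515).

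C6 joins C5b as the next part of the complex. It was 0.39, 0.58, 0.29, and 0.29 in chow mice, 0.62, 0.70, 0.61, and 0.71 in 1B mice, -0.08, -0.91, -0.14, and -0.09 in HFD mice, and -0.34, -1.46, -1.09, -0.60, and -0.50 in HFD+1B mice. Both HFD-fed groups lay below every chow-fed mouse, and HFD mouse 2 was far below the 3 other HFD mice. C6 was lower in HFD+1B than in chow by 2.27-fold (log2 difference -1.18, SE 0.20, adjusted p 0.000475), and lower in HFD by 0.69 on the log2 scale (SE 0.21, adjusted p 0.0432). The HFD call was lost in 11 of the 17 fits without 1 mouse, among them that without HFD mouse 2 (all but those without HFD 1 or an HFD+1B mouse), with log2 differences of -0.77 to -0.49 and an adjusted p of 0.0511 to 0.119.

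The 3 remaining terminal genes fell less than 2-fold in HFD+1B compared with chow. C9, the subunit that polymerizes into the ring of the pore, fell by 0.67 (SE 0.19, adjusted p 0.0305), Hc, the mouse gene of C5, by 0.51 (SE 0.12, adjusted p 0.0058), and C8g, the gamma chain of C8, by 0.42 (SE 0.13, adjusted p 0.0321). All 5 HFD+1B mice were below the chow mice for Hc and C8g, but not for C9. C9 and C8g were also lower in HFD+1B than in HFD, by log2 differences of -0.75 and -0.42 (adjusted p 0.0309 and 0.0269). C9 had a value in 2 of the HFD mice, and this difference was -0.36 without HFD 1 and -1.15 without HFD 2. C9 lost its call against chow without chow 1 or 4 or HFD+1B 2, 3, or 4 (adjusted p up to 0.147) and against HFD without HFD 1 or HFD+1B 2, 3, or 4 (up to 0.36), and C8g lost both calls without HFD+1B 2 or 4, that against chow also without any 1 of the chow mice, and that against HFD also without HFD 2 or 3 (up to 0.0875). In 1B the 6 terminal genes ranged from -0.27 to 0.28 relative to chow, and none was called. C7, which joins the complex between C6 and C8, was not a member. It was well above background in 0 of 4 chow, 1 of 4 1B, 1 of 4 HFD, and 5 of 5 HFD+1B mice. C7 thus passed the filter on signal mainly through the HFD+1B mice. Its mean Cy5 signal was 1.24-fold higher in HFD+1B than in chow mice, and it was not called (limma adjusted p 0.659).

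The mean of the 6 terminal genes was low in HFD mice and lowest in HFD+1B mice. Relative to chow it was -0.24 to 0.26 in the chow mice, 0.00 to 0.07 in 1B mice, -0.74 to -0.30 in HFD mice, and -1.53 to -0.79 in HFD+1B mice, so that neither HFD-fed group overlapped with any other group in this mean. The mean of a mouse used only the genes with a value in it. In HFD minus chow only C8b and C6 were called, and C8g, C9, and Hc stood at 0.01, 0.08, and -0.23. The median of these genes per mouse did overlap, at -0.26 in HFD 1 and -0.30 in chow 3.

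**Figure D3:**
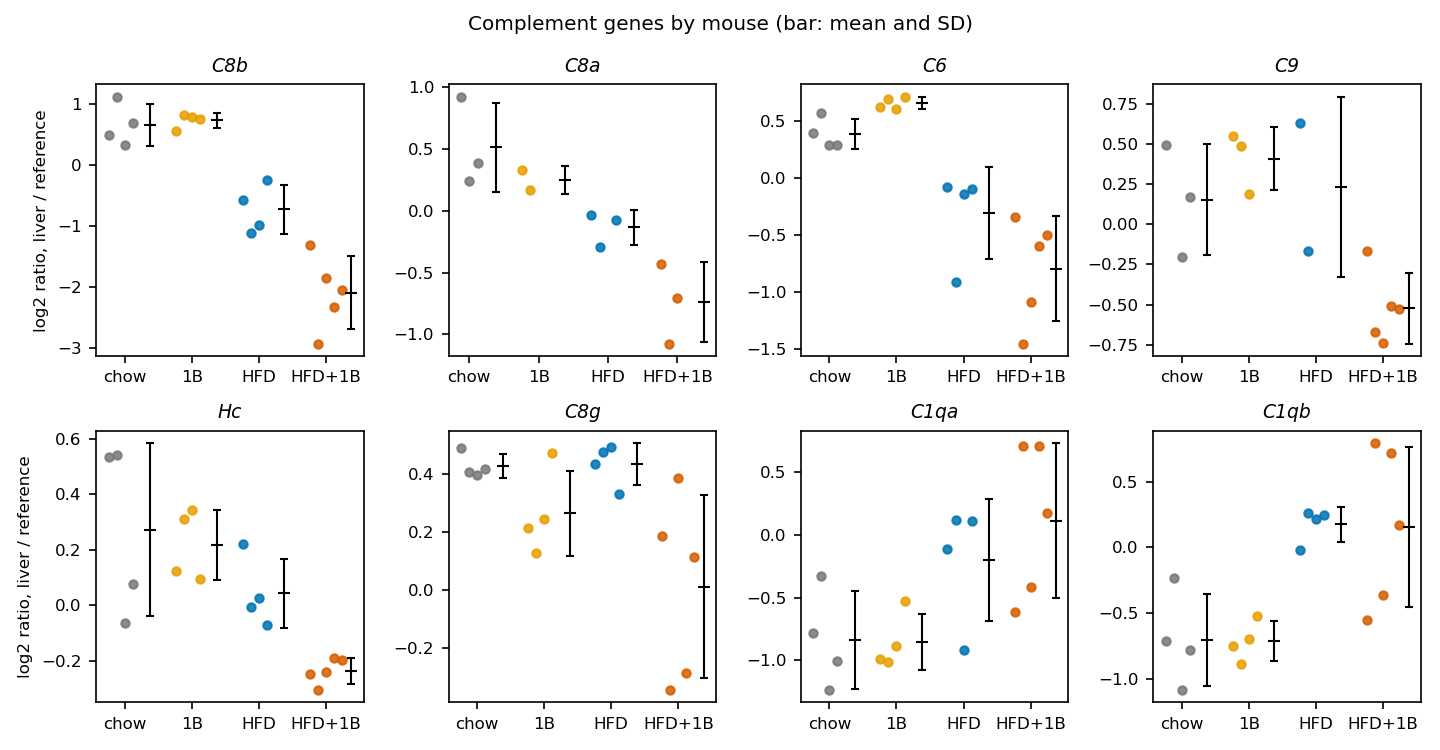
Log2 ratio of liver to reference in each mouse (points) for 6 terminal complement genes, C1qa, and C1qb in the 4 groups, with the mean and SD as a bar beside the points, each panel with its own axis. The HFD+1B mice are the lowest for C8b, at -2.93 to -1.30, while C1qb lies at -0.02 or above in HFD mice and at -0.24 or below in chow mice.

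C1qb and C1qa, which encode chains of C1q in the classical pathway, were higher in HFD+1B mice. C1qb, a chain of C1q, was -0.72, -0.24, -1.09, and -0.78 in chow mice, -0.75, -0.89, -0.70, and -0.52 in 1B mice, -0.02, 0.26, 0.21, and 0.25 in HFD mice, and -0.55, 0.79, -0.36, 0.72, and 0.17 in HFD+1B mice. All HFD mice were above the chow mice, and 2 HFD+1B mice overlapped with them. It was higher by 0.88 in HFD (SE 0.25, adjusted p 0.0299) and by 0.86 in HFD+1B (SE 0.23, adjusted p 0.0172). C1qa was higher by 0.95 in HFD+1B (SE 0.28, adjusted p 0.0253) and stood at 0.64 in HFD, and C1qc, which lies beside both in the genome, stood at 0.87 in HFD and 0.64 in HFD+1B (adjusted p 0.0618 and 0.137). The calls lost significance without single mice, C1qb in HFD+1B without chow 3 (0.73, adjusted p 0.0702), C1qb in HFD without chow 1, 3, or 4 or HFD 2, 3, or 4 (adjusted p up to 0.0917), and C1qa without chow 3 or 4 or HFD+1B 2 or 4 (up to 0.0923). The list of macrophage and Kupffer cell markers (9 genes tested) had a mean relative to chow of -0.22 to 0.35 over the chow mice. It was 0.44 to 0.63 over the HFD mice and 0.30 to 0.84 over the HFD+1B mice, so that HFD+1B overlapped with chow. Of these markers 4 were called higher in HFD and 2 in HFD+1B. Clec4f, which marks Kupffer cells, stood at 0.12 and 0.32 and was not called. The part of these markers in the result was not tested, and in bulk tissue more cells of a type and more RNA per cell cannot be told apart.

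Of the proteases that act with C1q, C2 and C1ra fell. C2, the protease of the C3 convertase, was lower in HFD by 0.84 (SE 0.16, adjusted p 0.00311) and in HFD+1B by 0.91 (SE 0.15, adjusted p 0.000413), and its dimmer probe gave -0.78 and -1.08. C1ra, which activates C1s, was lower by 0.43 in HFD (adjusted p 0.0388) and by 0.75 in HFD+1B (SE 0.12, adjusted p 0.000326). The HFD call of C1ra was lost without any 1 of the chow mice or HFD 1, 2, or 3 (adjusted p up to 0.105). For both genes every HFD+1B mouse with a value was below every chow mouse. C1s1, which carries the name C1s with a number and was not matched as a member, was higher in HFD by 0.34 on its brightest probe (adjusted p 0.0405, 3 HFD mice with a value) and by 0.11 on a dimmer one (adjusted p 0.454), and these probes stood at 0.21 and -0.03 in HFD+1B and were not called there. C4b, the substrate of C1s, stood at 0.48 in HFD and 0.29 in HFD+1B and was not called (adjusted p 0.0523 and 0.164). Its near-identical neighbor C4a, not a member, was lower in HFD by 1.53 (SE 0.33, adjusted p 0.00755) and higher in HFD+1B than in HFD mice by 1.37 (SE 0.32, adjusted p 0.00613), and the 2 genes may share signal on the array.

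In the lectin pathway, Mbl2, a mannose-binding lectin, was the only complement gene called lower in 1B mice. It was 0.13, 0.20, and -0.10 in 3 chow mice and -0.67, -0.96, -0.66, and -0.85 in the 1B mice, with no overlap, and the difference was 1.82-fold (SE 0.14, adjusted p 0.00204). The call was lost with Cy5 alone. In HFD+1B mice Mbl2 was at -0.41 to 0.01 and was not called. Masp2, the protease that cleaves C4 in this pathway, fell by 0.53 in HFD+1B (SE 0.11, adjusted p 0.00193), and its dimmer probes gave -0.44 and -0.55, both called. Masp1, its activator, fell by 0.59 in HFD (adjusted p 0.017) and 0.42 in HFD+1B (adjusted p 0.0342), but its probes disagreed: in HFD 2 of them fell and 1 rose by 0.44 (adjusted p 0.0326). Masp1 lost the HFD call without chow 1 (adjusted p 0.0516) and the HFD+1B call without chow 1 or 3 or HFD+1B 2 or 4 (up to 0.123). Mbl1 stood at -0.23 in HFD+1B and was not called in any comparison.

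C3, on which all 3 pathways converge, was -0.05, -0.17, -0.04, -0.03, and -0.08 in the HFD+1B mice and 0.40 to 0.96 in chow, 0.28 to 0.88 in 1B, and 0.11 to 0.86 in HFD mice. The HFD+1B mice lay in a narrow range below all 12 others, and C3 was lower than in chow by 1.66-fold (log2 difference -0.73, SE 0.15, adjusted p 0.00224) and lower than in HFD mice by 0.51 on the log2 scale (adjusted p 0.0231). The second difference lost its call without HFD 3 (-0.37, adjusted p 0.0941) or HFD 4 (adjusted p 0.057) and with median centring (-0.26, adjusted p 0.372), and with the mean over both probes it turned to 0.37 (adjusted p 0.268). Cfb, factor B, fell by 0.37 against chow (adjusted p 0.0133) and by 0.33 against HFD (adjusted p 0.0215). The first call of Cfb was lost without chow 2 (adjusted p 0.0581) and the second without HFD 2 or 4 or HFD+1B 1 or 2 (up to 0.0558). Cfd, factor D or adipsin, which is known as an adipocyte product, spread from -3.11 to 1.10 within the chow mice and from -0.51 to 2.25 within the HFD mice. Its difference of 1.74 between HFD and chow had an SE of 0.78 and did not pass (adjusted p 0.17). The list of adipocyte markers (10 genes tested) had a mean relative to chow of 0.62 to 0.78 over the HFD mice and -0.17 to 0.10 over the chow mice, which did not overlap. In HFD minus chow 3 of its genes were called higher (Cidec, Cidea, and Fabp4) and 0 lower, with a median of 0.22, and Adipoq and Plin1 stood at -0.35 and 0.06 and were not called. The part of these genes in the Cfd values was not tested.

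Among regulators, C4bp, which dismantles the C3 convertase of the classical pathway, was higher in 1B by 1.69-fold (SE 0.17, adjusted p 0.0152). Its values were 1.31, 0.53, 0.31, and 0.37 in 1B and -0.25 to 0.00 in chow mice, without overlap, and the call was lost without chow 4 (0.71, adjusted p 0.057) and with median centring or Cy5 alone. A dimmer C4bp probe stood at 0.42 in 1B and was not called (adjusted p 0.209). Cfi, the protease that inactivates C3b, was lower in HFD+1B by 0.27 (adjusted p 0.0295) and lower than in HFD mice by 0.26 (adjusted p 0.0331), and each call was lost in 11 of 27 other fits. These 11 fits included those without chow 1 or 2 or HFD+1B 1 or 5 for the first (adjusted p up to 0.113) and those without HFD 1, 2, or 3 or HFD+1B 1, 4, or 5 for the second (up to 0.109). Clu (clusterin) and Vtn (vitronectin), which bind the terminal complex, were not called in any comparison, with differences of -0.46 to 0.37.

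All 3 fibrinogen chains rose in HFD+1B compared with chow, and Fga and Fgg also rose in 1B. Fga, Fgb, and Fgg encode its alpha, beta, and gamma chains. Fga was -0.50, -0.72, -1.21, and -0.98 in chow mice, 1.56, 0.71, -0.13, and 0.51 in 1B mice, -0.73, 1.06, and -0.85 in 3 HFD mice (2, 3, and 4), and 1.68, 0.23, 0.56, 0.79, and 0.57 in HFD+1B mice. Fgb was -0.24, -0.07, -0.51, and -0.64 in chow mice, 2.04, 0.15, and 1.12 in 3 1B mice, -0.71, -0.63, 1.52, and -0.57 in HFD mice, and 2.19, 1.28, 1.40, 1.52, and 1.31 in HFD+1B mice. Fgg was -0.71, -1.14, -1.47, and -1.46 in chow mice, 1.01, 0.56, -0.62, and 0.32 in 1B mice, -0.88, -1.16, 0.83, and -1.10 in HFD mice, and 1.43, 0.22, 0.90, 0.76, and 0.62 in HFD+1B mice. For each chain all 1B and all HFD+1B mice were above all chow mice, and HFD mouse 3 reached the ethanol groups while the other HFD mice stayed near chow.

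Compared with chow, HFD+1B mice had 3.07-fold more Fga (log2 difference 1.62, SE 0.38, adjusted p 0.00748), 3.74-fold more Fgb (1.90, SE 0.41, adjusted p 0.00401), and 3.94-fold more Fgg (1.98, SE 0.37, adjusted p 0.00119). The rise was seen on 4 of 4 slides for each chain, from 1.29 to 2.42 on the log2 scale. In 1B mice Fga was higher by 1.52 (SE 0.40, adjusted p 0.0438) and Fgg by 1.51 (SE 0.39, adjusted p 0.0364), whereas Fgb, at 1.47, did not pass (SE 0.47, adjusted p 0.108). Against HFD, Fgb was higher in HFD+1B by 1.64 (adjusted p 0.0109) and Fgg by 1.36 (adjusted p 0.0165), and Fga stood at 0.94 (adjusted p 0.13). None of the chains had an interaction that was called (-0.58 to 0.17). With Cy5 alone, Fgb was 0.67 against chow (adjusted p 0.0519) and 0.33 against HFD (adjusted p 0.338), Fgg was 0.72 against HFD (adjusted p 0.18), and the 1B calls of Fga and Fgg were lost, as they were with median centring.

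HFD mouse 3 widened the spread used for these tests. Without it, Fga, Fgb, and Fgg in HFD+1B minus HFD were 1.55, 2.18, and 1.83 (adjusted p 0.0116, 0.000316, and 0.000812), and the adjusted p in 1B minus chow was 0.00953, 0.0126, and 0.00452 at differences of 1.52, 1.47, and 1.51. The 1B calls were not firm: that of Fga was lost without any 1 of the chow mice, 1B 1, 2, or 4, or HFD+1B 3, 4, or 5 (adjusted p 0.0536 to 0.168), that of Fgg without chow 2, 3, or 4 or 1B 1, 2, or 4 (0.0713 to 0.143), and Fgb gained one without 1B 3 (1.94, adjusted p 0.0382). Fgg in HFD+1B minus HFD lost its call without HFD 2 or 4 (adjusted p 0.0546 and 0.0628). The acute phase list (14 genes such as Saa1, Hp, and Orm1, without fibrinogen) moved with the chains only in part. Relative to chow, its mean ranged from -0.51 to 0.48 over the chow mice and from 0.30 to 2.48 over 1B. Over HFD+1B it ranged from 1.72 to 3.13. HFD mouse 3 reached 2.94, whereas HFD mice 1, 2, and 4 had means of 0.69, 0.58, and 0.66. By this list, 1B mouse 3 (0.30) thus lay within the chow range and HFD mice 1, 2, and 4 above it. For each chain, 1B mouse 3 was above all chow mice, while HFD mice 2 and 4 stayed near chow. The lowest 1B mouse of the list, mouse 3, was also the lowest 1B mouse for each chain. The part of the list in the result was not tested.

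F13b, the carrier subunit of the factor that crosslinks fibrin, went down where fibrinogen went up. It fell by 0.48 in 1B (SE 0.10, adjusted p 0.00835) and by 0.71 in HFD+1B (SE 0.09, adjusted p 4.83e-05), with no overlap with chow in either group, and HFD+1B was lower than HFD by 0.54 (adjusted p 0.000899). The last call was lost with median centring and with Cy5 alone (adjusted p 0.121 and 0.193), and that in 1B with Cy5 alone (adjusted p 0.415).

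**Figure D4:**
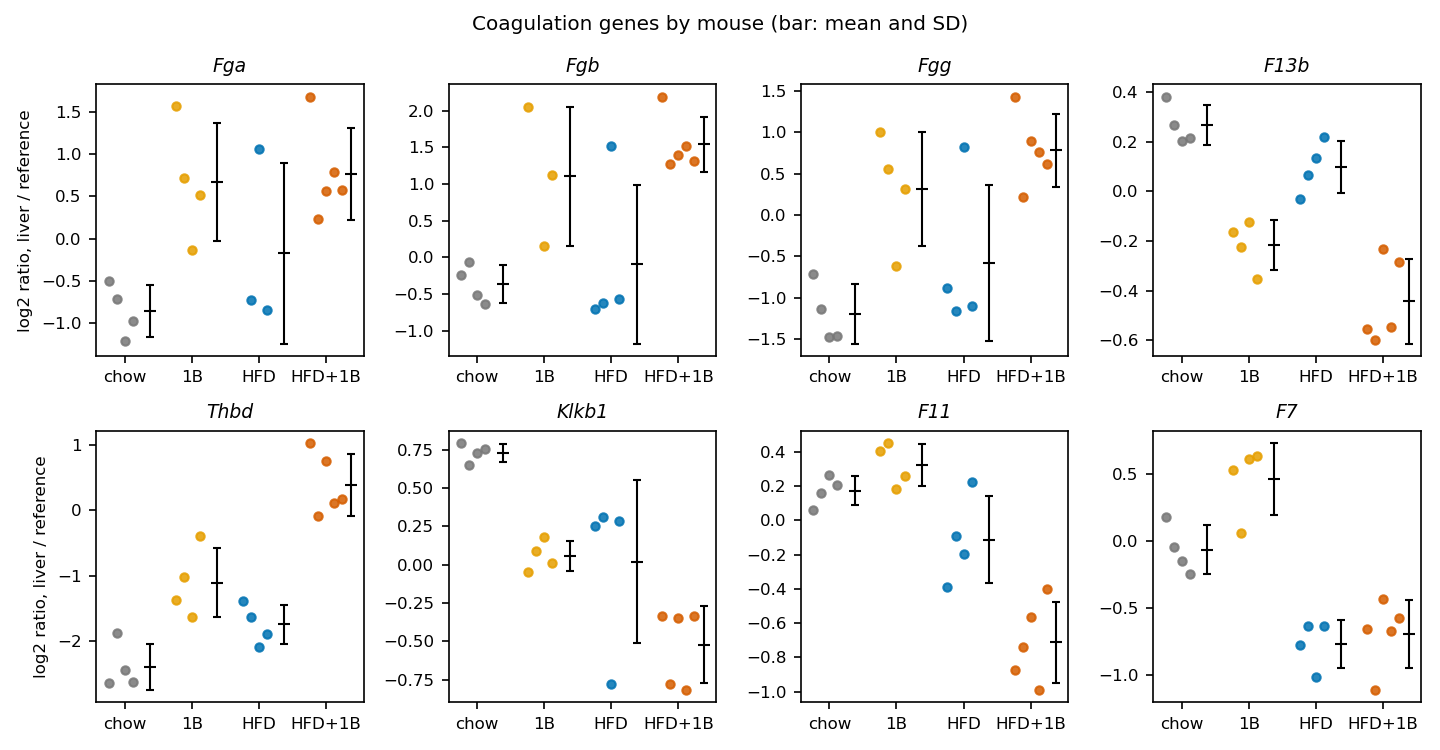
Log2 ratio of liver to reference in each mouse (points) for the fibrinogen chains, F13b, Thbd, Klkb1, F11, and F7 in the 4 groups, with the mean and SD as a bar beside the points, each panel with its own axis. The ethanol groups lie above chow for the 3 chains, HFD mouse 3 is the single high point among the HFD mice, and all HFD+1B mice are above all other mice for Thbd.

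Among anticoagulant genes, Thbd, the thrombomodulin with which thrombin activates protein C, had the largest rise of the 49 genes. It was -2.63, -1.88, -2.44, and -2.62 in chow mice, -1.37, -1.02, -1.62, and -0.40 in 1B mice, -1.38, -1.62, -2.08, and -1.88 in HFD mice, and 1.02, -0.09, 0.75, 0.11, and 0.17 in HFD+1B mice. Every HFD+1B mouse was above every other mouse, and every 1B mouse above every chow mouse. Thbd was 6.91-fold higher in HFD+1B than in chow (log2 difference 2.79, SE 0.25, adjusted p 1.46e-06), 4.4-fold higher than in HFD (2.14, SE 0.25, adjusted p 5.04e-05), and 2.45-fold higher in 1B than in chow (1.29, SE 0.27, adjusted p 0.00953). In HFD it stood at 0.65, and the interaction of 0.85 was not called. The differences to chow within slides were 2.05 to 3.66 in HFD+1B on 4 of 4 slides. The endothelial list (10 genes) had a mean of 0.00 to 0.43 in HFD+1B mice relative to chow, with members on both sides, Lyve1 at 3.19 and Kdr at -1.05, and its part in the result was not tested.

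Other anticoagulant genes were lower or not called. In HFD+1B compared with chow, Serpind1 (heparin cofactor II) fell by 0.76 (SE 0.17, adjusted p 0.0041), Proc (protein C) by 0.60 (SE 0.10, adjusted p 0.000454), and Serpinc1 (antithrombin) by 0.37 (SE 0.09, adjusted p 0.00978). A dimmer Serpinc1 probe fell by 0.27 (adjusted p 0.0333). Proc was also lower in HFD by 0.42 (adjusted p 0.0177), a call lost without chow 3 or HFD 3 (adjusted p 0.05 and 0.0586). Serpind1 in HFD+1B minus HFD was called by a narrow margin (-0.49, adjusted p 0.0486) that was lost in 18 of 27 other fits, 13 of them without 1 mouse (all but 1B 1, HFD 3, and HFD+1B 3 and 5). Tfpi, the inhibitor of the tissue factor pathway, fell by 0.68 in HFD on its brightest probe (adjusted p 0.0311). This difference of Tfpi was -0.43 without HFD mouse 3 (adjusted p 0.0779), and the call was lost without any 1 of the chow mice or HFD 3 or 4 (adjusted p up to 0.0793). A dimmer Tfpi probe rose from HFD to HFD+1B mice by 0.88 (adjusted p 0.00627), with an interaction of 1.37 (adjusted p 0.0173), so the probes disagreed. Pros1 (protein S) and A2m were not called, with differences of -0.29 to 0.27.

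The contact factors, which start coagulation on charged surfaces, were lower in HFD+1B mice except for F12. Klkb1, prekallikrein, was 0.79, 0.65, 0.73, and 0.75 in chow mice, -0.05, 0.09, 0.18, and 0.01 in 1B mice, 0.26, 0.31, -0.78, and 0.29 in HFD mice, and -0.33, -0.78, -0.35, -0.82, and -0.34 in HFD+1B mice. The chow mice lay in a narrow range above all 13 others, and HFD mouse 3 was at the level of the HFD+1B mice. Klkb1 was lower by 2.38-fold in HFD+1B (log2 difference -1.25, SE 0.18, adjusted p 0.000117) and by 1.64-fold in HFD (SE 0.19, adjusted p 0.0249), and in 1B its difference of -0.67 did not pass (SE 0.19, adjusted p 0.0597) although the groups did not overlap. The 1B difference passed without HFD mouse 3 (adjusted p 0.00171). Without HFD mouse 3 the HFD difference was -0.45 (adjusted p 0.0434), and the call was lost without chow 1, 3, or 4 (adjusted p 0.0523 to 0.0625). Against HFD, the difference of -0.54 (adjusted p 0.0449) was lost in 18 of 27 other fits, 13 of them without 1 mouse (all but HFD 3 and HFD+1B 1, 3, and 5), and was -0.81 (adjusted p 0.00037) without HFD mouse 3.

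F11, which is the next gene to Klkb1, was 0.06, 0.16, 0.26, and 0.21 in chow mice, 0.40, 0.45, 0.18, and 0.26 in 1B mice, -0.39, -0.09, -0.20, and 0.22 in HFD mice, and -0.87, -0.74, -0.56, -0.99, and -0.40 in HFD+1B mice. All HFD+1B mice were below every other mouse. F11, the zymogen of factor XIa, fell by 1.85-fold against chow (SE 0.13, adjusted p 0.000109) and by 1.52-fold against HFD (log2 difference -0.60, SE 0.13, adjusted p 0.00348), and its interaction was -0.75 (SE 0.18, adjusted p 0.0301). The interaction lost its call without chow 1 or 4, 1B 1 or 2, HFD 4, or HFD+1B 4 (adjusted p 0.0509 to 0.0643), and it and the difference to HFD lost theirs with median centring (-0.43 and -0.33) and with Cy5 alone. Kng1, the source of bradykinin, was lower by 0.57 in HFD+1B (adjusted p 0.0146) and by 0.56 in HFD (adjusted p 0.0326), with chow mouse 1 at 1.09 and the 3 other chow mice at 0.10 to 0.29. Without chow mouse 1 these differences of Kng1 were -0.34 (adjusted p 0.0201) and -0.33 (adjusted p 0.0496). The HFD difference of Kng1 lost its call without any 1 of the HFD mice (adjusted p 0.0509 to 0.0751), and with Cy5 alone it was 0.25 (adjusted p 0.686). A dimmer Kng1 probe stood at -0.44 in HFD+1B, which was not called (adjusted p 0.065), and at -0.61 in HFD (adjusted p 0.038). F12 stood at -0.08 to 0.07 in the 5 comparisons.

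Of the procoagulant proteases, F7 and F10, which are neighbors in the genome, were lower in HFD+1B, by 0.63 (SE 0.14, adjusted p 0.00586) and 0.62 (SE 0.12, adjusted p 0.00243), and all HFD+1B mice with a value lay below all chow mice. F7, the partner of tissue factor, was already lower in HFD by 0.70 (SE 0.15, adjusted p 0.00735) and stood at 0.53 in 1B (adjusted p 0.0662). F3, tissue factor itself, was -0.39, -0.22, 0.07, and -0.31 in chow mice, -0.19, 0.08, 0.20, and 0.01 in 1B mice, 0.21, -0.04, 0.02, and 0.36 in HFD mice, and -0.34, -0.10, -0.14, -0.66, and -0.41 in HFD+1B mice. All HFD+1B mice were below all HFD mice while the other groups overlapped. F3 was lower in HFD+1B than in HFD mice by 0.46 (SE 0.13, adjusted p 0.0185), a call lost without HFD 4 or HFD+1B 4 (adjusted p 0.0536 and 0.0742 in these fits), with median centring, and with Cy5 alone, and its dimmer probe gave -0.20. Its interaction was -0.70 (SE 0.19, adjusted p 0.043), lost in 11 of the 17 fits without 1 mouse (all but those without chow 3, 1B 1, HFD 2, or HFD+1B 2, 3, or 5; adjusted p up to 0.0943). F2 (prothrombin), F5, and F9 were not called on their brightest probes. F2 stood within -0.07 to 0.00, F9 at -0.23 to 0.21 with a dimmer probe at -0.44 in HFD+1B (adjusted p 0.0236), and F5 at -0.47 in 1B (adjusted p 0.0575) with values in only 2 1B mice.

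In fibrinolysis, Plg, the plasminogen that plasmin is made from, was lowest in the HFD group. Its brightest probe was 0.45, 0.35, 0.32, and 0.19 in chow mice, 0.50, 0.31, 0.42, and 0.29 in 1B mice, -0.68, -3.47, and -1.84 in HFD mice 2, 3, and 4, and 0.18, -0.27, -0.13, 0.02, and -0.55 in HFD+1B mice. The HFD mice were below all others and far apart from each other. Plg was lower in HFD than in chow by 5.01-fold (log2 difference -2.33, SE 0.39, adjusted p 0.00174) and higher in HFD+1B than in HFD mice by 3.59-fold (1.84, SE 0.38, adjusted p 0.00312), and it stood at -0.48 in HFD+1B minus chow (adjusted p 0.43). A second probe gave -1.84 (adjusted p 0.00864) and 1.27 (adjusted p 0.0308) for the first pair. Without HFD mouse 3 the differences of the brightest probe were -1.59 (adjusted p 0.00142) and 1.11 (adjusted p 0.00519). The interaction of 1.80 did not pass (adjusted p 0.0622).

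Other probes shared the low level in HFD mice. The second probe of C3 was -0.73, -1.06, -3.30, and -1.91 in HFD and -0.01 to 0.83 in chow mice, and was lower by 2.13 on the log2 scale (adjusted p 0.00763), while the brightest C3 probe differed by -0.22. C4a was -0.68, -0.84, -1.89, and -1.78 in HFD and -0.19 to 1.14 in chow mice. For the second C3 probe and for Plg, HFD mouse 3 was the lowest mouse. The ribosomal RNA probes averaged -2.85, -2.15, -3.81, and -3.31 in HFD mice 1 to 4 and -1.16 to 1.12 in the 13 other mice. The part of this signal in the Plg result was not tested.

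**Figure D5:**
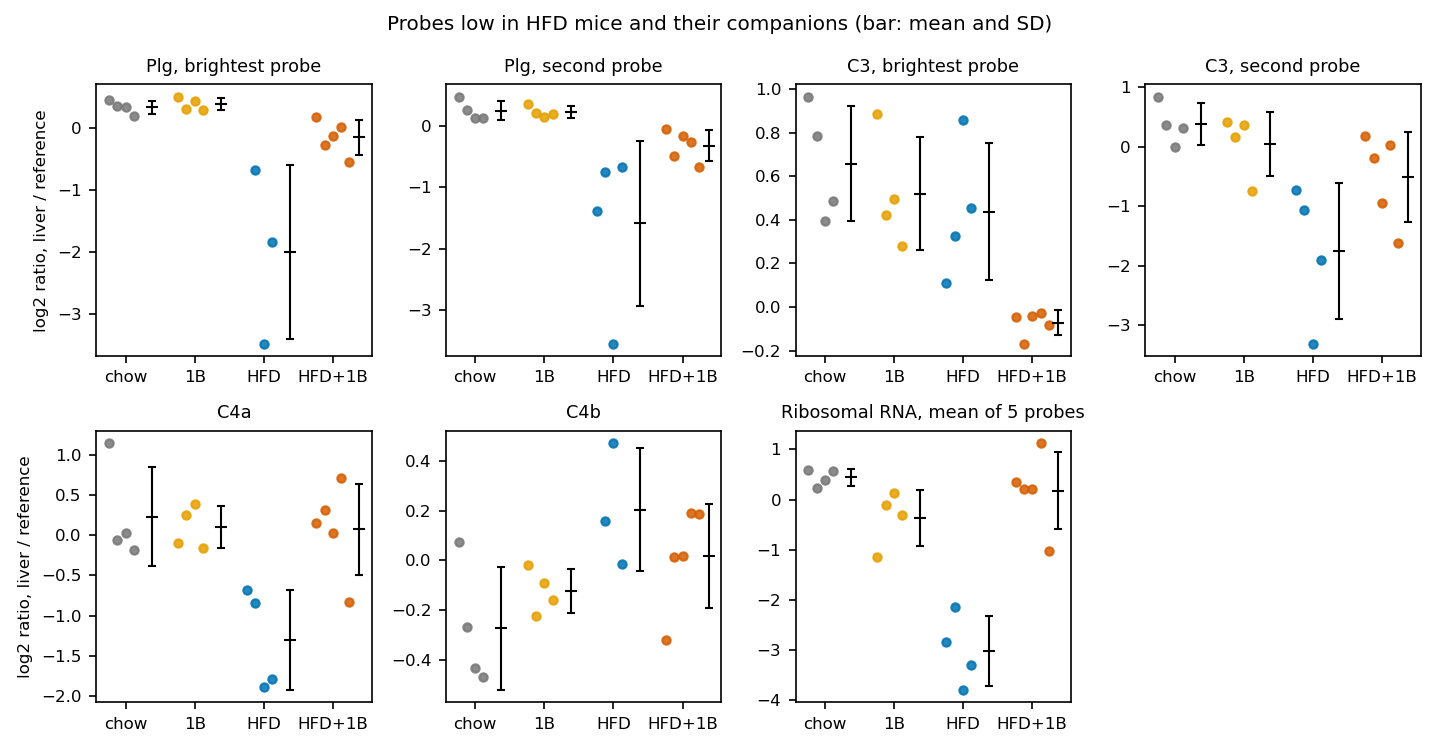
Log2 ratio of liver to reference in each mouse (points) for 2 probes each of Plg and C3, for C4a and C4b, and for the mean of 5 ribosomal RNA probes, with the mean and SD as a bar beside the points, each panel with its own axis. Both Plg probes, the second C3 probe, C4a, and the ribosomal RNA mean are lowest in HFD mice, while the brightest C3 probe is lowest in HFD+1B mice.

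Plaur, the urokinase receptor, was higher in HFD+1B by 0.47 against chow (SE 0.13, adjusted p 0.0173) and by 0.62 against HFD (SE 0.13, adjusted p 0.00305), and all HFD+1B mice were above all chow and HFD mice. Its dimmer probe gave 0.74 and 0.86, both called, and the call against chow was lost without chow 1 or 3 (adjusted p 0.0574 and 0.0671). Plat (tissue plasminogen activator), Plau (urokinase), and Serpinf2 (antiplasmin) were not called on their brightest probes, with differences of -0.32 to 0.35, and a dimmer Plat probe was higher by 0.38 in HFD+1B (adjusted p 0.038).

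Further genes of both pathways, receptors, regulators, and helper proteins that were not members, were counted for context. Of 24 further complement genes tested, 0 were higher and 4 lower when HFD+1B was compared with chow, and of 26 further coagulation genes 6 were higher and 5 lower. In HFD the counts were 0 and 4 for complement and 2 and 2 for coagulation, in 1B 0 and 1 and 3 and 0, and in HFD+1B minus HFD 3 and 3 and 4 and 3. Of all genes, 16.3% were called in HFD+1B minus chow, 11.0% in HFD, 4.14% in 1B, and 19.4% in HFD+1B minus HFD. The further complement genes called in HFD+1B minus chow were near the share of all genes. Anxa2 and S100a10, which together form a plasminogen receptor on cells, were higher in HFD by 2.67 and 1.72 (adjusted p 0.000136 and 0.000383) and in HFD+1B by 3.20 and 1.83 (adjusted p 2.69e-06 and 2.91e-05), with 0.53 and 0.12 between HFD+1B and HFD. C4a is described above.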

How the data were processed

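Arrays of 17 mouse livers (Agilent, 2 colors) were deposited by the authors as scanner intensity values per spot, from Agilent Feature Extraction (version 11.5.1.1), and as a table of log2 ratios that the authors made from the processed signals. The deposited log2 values differed from the processed signals by at most 2.7e-06 over 40901 probes. Cy5 held 1 liver and Cy3 the common reference, with no dye swap, so that a dye effect of a probe is the same in all groups. Median foreground and median background intensities were corrected with normexp (offset 50), scanner outlier spots were left out, loess was fitted within arrays with control spots at weight 0, and spots of a probe were averaged. Probes had to be well above background in Cy5 on at least 4 of 17 arrays. Group means were fitted in limma (version 3.58.1 in R 4.3.3) over all probes tested, with Benjamini-Hochberg adjustment and a threshold of 0.05, and a gene was taken by its brightest probe. The study's methods name an analysis of variance with Tukey test, which was run as an alternative. Tests were two-sided. The fit was tested on simulated data and recovered 198 of 200 probes changed by a log2 of 2 in HFD+1B minus chow among 34649 probes. The simulated noise was normal and independent between arrays, without slide effects. Recovery of smaller changes, such as most of those reported here, was not tested. Figures were drawn in matplotlib.

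Groups came from the labels. Values in every mouse are given for members called with at least a 2-fold change in a group comparison or called in the interaction, and for a few others chosen after their values were seen (C1qb, C3, Mbl2, C4bp, the second C3 probe, and C4a). Of the further pathway genes, those called with at least a 2-fold change are named, except for a result that is not reported here. Members and gene lists were chosen with earlier results of these data known. Alternatives were the authors' table, background and offset, centring, Cy5 alone, signal filters, slide and replicate blocks, the mean over probes, other call rules, and leaving out each mouse. Promoters came from RefSeq (GRCm38.p6), in which 35 of 50 members were found.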

Additional observations from a re-analysis of the deposited data

Results flagged for a closer look

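Groups of 4 or 5 mice were examined for each member and for the mean of each class. In 11 of 183 such groups, all of them for members, 1 mouse lay apart from the others. Chance gives about 1 in 20 groups (9.15 expected). The value is the gap to the nearest mouse as a share of the range of the group. HFD mouse 3 was the highest of its group for Fgb (0.936) and Fgg (0.861) and the lowest for Klkb1 (0.947). HFD mouse 2 was the lowest for C6 (0.924), and HFD+1B mouse 1 was the highest for Fgb (0.728). In 1B, mouse 1 was the lowest for Cfb (0.957), mouse 2 the highest for Tfpi (0.917), and mouse 4 the highest for Cfd (0.863). In chow, mouse 1 was the highest for F5 (0.862) and Plat (0.845), and mouse 3 the lowest for A2m (0.837).

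The limma interaction of diet and ethanol was called for C8b (-1.44), F11 (-0.75), and F3 (-0.70), each with an adjusted p of 0.05 or less. Among all genes, 4.38% were called. These calls were lost in 10, 6, and 11 of the 17 fits without 1 mouse, in that order of genes. No member had a negative interaction call with median centring, and none had any with Cy5 alone. C8b stood at 0.08 with ethanol on chow and at -1.36 with ethanol on HFD. F11 stood at 0.15 and -0.60, and F3 at 0.24 and -0.46.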

How the results depend on the processing

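Counts of called genes depended on the processing more than did the directions of members called in the fit used throughout. The balance of higher and lower calls also moved with median centring, as described above. In the order 1B, HFD, HFD+1B minus chow, HFD+1B minus HFD, and interaction, the counts were 2, 6, 15, 6, and 1 for complement and 4, 6, 14, 10, and 2 for coagulation. With Cy5 alone they fell to 0, 2, 7, and 0 for complement in 1B, HFD, HFD+1B minus chow, and the interaction, and to 1, 3, 8, 4, and 0 for coagulation. Over all genes the counts fell as well, from 801, 2122, 3154, 3746, and 848 to 167, 753, 1148, 1193, and 153 with Cy5 alone. At 2-fold and an unadjusted p the member counts were 0, 2, 3, 1, and 2 for complement and 4, 1, 5, 4, and 1 for coagulation. The methods' Tukey test with Benjamini-Hochberg adjustment gave 0, 0, 6, and 1 for complement and 0, 0, 8, and 4 for coagulation, and without adjustment 7 coagulation genes in 1B. It gives no interaction value. Median centring gave 1 complement gene in 1B and 10 and 6 coagulation genes in HFD and HFD+1B minus HFD. The authors' table gave 2 coagulation genes in 1B and 1 in the interaction. The slide as a block gave 2 complement genes in the interaction. The cause was not tested. Leaving out 1 mouse gave 1 to 2, 3 to 9, 11 to 16, 3 to 7, and 0 to 3 complement genes and 2 to 7, 3 to 6, 13 to 15, 6 to 11, and 0 to 3 coagulation genes. Among members called in the fit used throughout, the direction turned for C3 in HFD+1B minus HFD with the mean over its probes (0.37 against -0.51). It also turned for Kng1 in HFD minus chow with Cy5 alone (0.25 against -0.56). Neither was then called. Replicate numbers were not taken as a pairing, since not every pair correlated. Of 24 pairs with the same number 16 had a correlation over 0.1 (range -0.126 to 0.479, and 0.236 to 0.479 in the 6 pairs of number 1, which share a slide). Pairs on the same slide mostly had the higher correlations (-0.081 to 0.479) and pairs on different slides the lower ones (-0.126 to 0.205). Number and slide thus overlapped, and the fit used throughout held no term for slide. In all, 9 of 17 mice correlated best with their own number. The replicate block gave 2 complement genes in the interaction and moved no other count by over 1.5 times. Dim probes and the 4 or 5 mice per group limit what could be called.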
